A study of Mus musculus with 10 samples.

Results

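The guanylate-binding proteins are large GTPases of the dynamin superfamily whose genes are among the most strongly interferon-inducible of the mouse. Interferon-γ, released by NK cells and T cells, signals through JAK kinases, and IRF1 is among the factors that drive Gbp transcription in macrophages and in many other cell types, tumor cells included. The proteins assemble on the vacuoles and membranes of intracellular microbes, where they act with autophagy proteins and the immunity-related GTPases, and they assist inflammasome activation. The 10 genes described here, Gbp2, Gbp2b and Gbp3 to Gbp10, were the rows of a count table of 45706 genes whose Ensembl identifiers carry these symbols in GENCODE release M21, and all 10 were found. Of the 10, 8 passed the filter on low counts that left 14550 genes for testing, and Gbp6 and Gbp10 did not.

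RNA was read from the 3′ ends of transcripts (QuantSeq) of 10 whole tumors taken on day 4 after C57BL/6 mice, 8 weeks old, received Braf V600E-driven melanoma cells. There were 4 tumors of COX-competent cells (Ptgs+/+) and 3 tumors of cells deficient in Ptgs1 and Ptgs2, the genes of COX-1 and COX-2 (Ptgs-/-), all in untreated hosts with their own COX genes intact. Another 3 Ptgs-/- tumors grew in mice given 200 µg of anti-NK1.1 (clone PK136) and 30 µg of an antibody to asialo GM1, per mouse, on day 0 and on day 2. That schedule is from the labels. The study's general methods give another, with a first dose the day before implantation and further doses every 3 days. Labels name no individual mouse, so p-values measure the spread between these tumors.

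The libraries held 8150556 to 12839174 counts, at which a floor of 3 counts corresponds to 0.234 to 0.368 CPM (counts scaled to the library's size). Ptgs2 averaged 258.2 CPM in Ptgs+/+ tumors, 42.2 CPM in Ptgs-/- tumors and 44.7 CPM after NK cell depletion, and Ptgs1 averaged 155.1, 91.9 and 96.1 CPM. Host cells also express both genes and a 3′ read can lie outside the edited part, so these levels do not check the knockout itself. Ncr1, an NK cell receptor, had 7 to 12 counts in each Ptgs+/+ library, 20 to 77 in each Ptgs-/- library and 0 in all 3 libraries of depleted mice. The melanocytic markers Mlana and Tyr were at or under the floor in every library of these tumors, which the labels call melanoma. Summed skeletal muscle markers ranged from 14.1 to 138.4 CPM in Ptgs+/+ tumors, from 83.2 to 302.6 CPM in Ptgs-/- tumors and from 1857 to 4382 CPM in tumors of depleted mice. The titles carry 2 experiment codes, the second of them borne only by replicate 4 of the Ptgs+/+ group and replicate 3 of the Ptgs-/- group.

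The 10 genes lie in 2 clusters of the GRCm38 genome. On the + strand of chromosome 3, in order, stand Gbp5 (142493978 to 142522344), Gbp7 (142530342 to 142550149), Gbp3 (142560026 to 142573209), Gbp2b (142594847 to 142619179) and Gbp2 (142620602 to 142638008). On the − strand of chromosome 5 lie Gbp8 (105014150 to 105139540), Gbp9 (105077630 to 105139539), Gbp4 (105115767 to 105139586), Gbp10 (105215699 to 105239533) and Gbp6 (105270702 to 105293698), the first 3 of which overlap each other. All 10 are annotated as protein-coding, with 10 to 12 exons and 1575 to 1914 coding bases. The clusters hold close copies, with a coding identity of 98.4% between Gbp6 and Gbp10, 92.9% between Gbp4 and Gbp8, 82.5% between Gbp2 and Gbp2b and 79.6% between Gbp3 and Gbp7.

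Since a 3′ read comes from the end of a transcript, the last 500 bases of each gene decide whether its reads can be told from those of its relatives. Gbp10 shared 88.9% of its 50-base words there with Gbp6, and Gbp6 shared 77.8% of its own with Gbp10 and Gbp9. Gbp4 shared 6.43% with Gbp6. The words of Gbp6 that matched Gbp9 lie outside the last 500 bases of Gbp9, and the last 500 bases of the other 7 members, Gbp9 included, held no 50-base word of another member. Counts of Gbp6 and Gbp10 are therefore uncertain as separate values, and the whole last stretch of Gbp10 also lies within exons of an overlapping gene, Gm43302, which had 0 counts in every library. Whether reads that fit several genes were counted is not stated, so the sum of Gbp6 and Gbp10 may also be too low.

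Promoters were looked up because the members moved together. RefSeq (GRCm38.p6) gave windows of 250 bases before to 50 after the start for the 5 chromosome 3 members, 6 windows in all, and no entry was matched for Gbp4, Gbp6, Gbp8, Gbp9 and Gbp10. An interferon-stimulated response element (ISRE) core, GAAANNGAAA on either strand, was in 5 of the 6 windows, against 3.44% of all 32851 promoter windows of that length. A gamma-activated site (GAS), TTCNNNGAA, which reads the same on both strands, was in 2 of the 6 (33.3%), against 8.3% of all windows. Both motifs stood together in the windows of Gbp5 and Gbp7, and in 0.454% of all windows. The sequences below show where these letters lie, in capitals, in the bases before each start that no exon covers, or, for Gbp2, in 30 bases around the match, of which 22 lie in an annotated exon. The Gbp5 stretch lies before the RefSeq start but within the Gbp5 gene as annotated by GENCODE, which begins at 142493978.
Gbp5 (chr3:142496684-142496899, + strand): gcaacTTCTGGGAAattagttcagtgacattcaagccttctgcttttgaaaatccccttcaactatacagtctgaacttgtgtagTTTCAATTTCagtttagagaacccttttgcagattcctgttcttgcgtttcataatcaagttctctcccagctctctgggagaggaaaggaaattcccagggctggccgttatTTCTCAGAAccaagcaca
Gbp7 (chr3:142530086-142530335, + strand): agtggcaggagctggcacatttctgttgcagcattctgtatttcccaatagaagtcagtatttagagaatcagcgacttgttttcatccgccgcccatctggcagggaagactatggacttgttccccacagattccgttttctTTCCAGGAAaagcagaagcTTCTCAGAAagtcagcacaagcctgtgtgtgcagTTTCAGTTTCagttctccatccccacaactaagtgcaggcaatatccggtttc
Gbp3 (chr3:142559794-142560025, + strand): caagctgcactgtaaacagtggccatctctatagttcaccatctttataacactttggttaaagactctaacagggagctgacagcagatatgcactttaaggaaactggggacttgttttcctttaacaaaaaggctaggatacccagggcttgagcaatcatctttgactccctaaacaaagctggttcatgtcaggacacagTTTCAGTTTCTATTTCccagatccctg
Gbp2b (chr3:142594597-142594846, + strand): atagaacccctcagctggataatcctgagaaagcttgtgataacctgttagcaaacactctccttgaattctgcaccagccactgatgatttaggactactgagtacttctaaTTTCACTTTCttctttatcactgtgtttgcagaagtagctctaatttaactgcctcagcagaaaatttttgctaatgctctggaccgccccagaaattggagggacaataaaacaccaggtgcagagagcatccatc
Gbp2 (chr3:142620594-142620623, + strand): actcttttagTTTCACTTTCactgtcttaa
The ISRE core began 59 bases before the start in Gbp2, 137 in Gbp2b, 45 and 39 in Gbp3 (overlapping matches), 165 in Gbp5 and 53 in Gbp7. The GAS began 245 and 52 bases before the start in Gbp5 and 106 and 87 bases before it in Gbp7. Both Gbp2 and Gbp2b held the same 10 letters, TTTCACTTTC. These are matches of letters and were not tested as binding sites.

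COX-deficient tumors held more Gbp transcripts than COX-competent ones. Summed over the 10 members, the libraries of Ptgs+/+ tumors had 79.2 ± 13.1 CPM (SD, n = 4, range 63.0 to 90.5), those of Ptgs-/- tumors 223.5 ± 50 CPM (n = 3, 170.3 to 269.5) and those of NK cell-depleted mice 127.4 ± 25.6 CPM (n = 3, 104.5 to 155.1). The sum was 2.82-fold higher in Ptgs-/- than in Ptgs+/+ tumors and 1.75-fold higher than in Ptgs-/- tumors of depleted mice, which were themselves 1.61-fold above Ptgs+/+ tumors. No library of any group reached the range of another. The ratio was larger over the chromosome 5 members than over those of chromosome 3 in each comparison, a difference that was not tested. Their sum averaged 11.5, 49.3 and 23.9 CPM in the 3 groups in the same order, with ratios of 4.28, 2.06 and 2.08, and the chromosome 3 sum averaged 67.7, 174.2 and 103.4 CPM, with ratios of 2.57, 1.68 and 1.53.

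**Figure D1:**
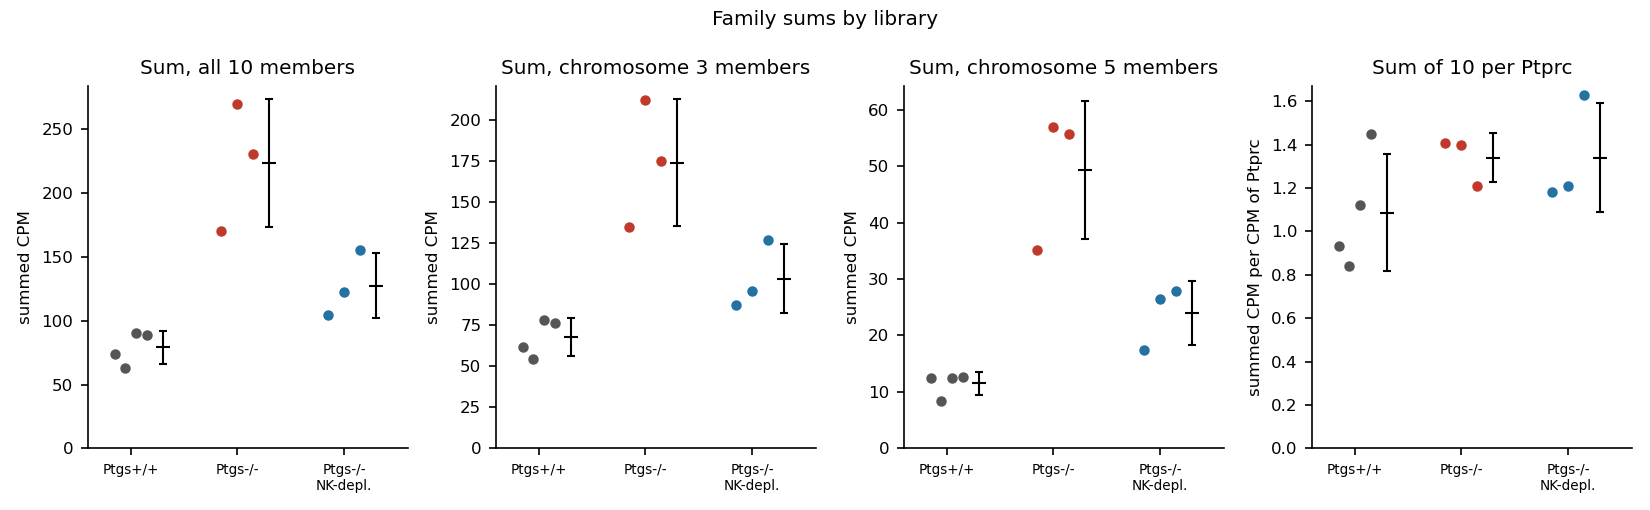
Summed CPM of all 10 members, of the 5 on chromosome 3 and of the 5 on chromosome 5, and the sum of 10 per CPM of Ptprc, in each of the 10 libraries (points), with the group mean and SD beside them. The groups separate in the first 3 panels (Ptgs+/+ up to 90.5 CPM, depleted 104.5 to 155.1 CPM, Ptgs-/- from 170.3 CPM for all 10) and overlap in the fourth.

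The sum moved with leukocyte transcripts. Ptprc, which encodes the pan-leukocyte surface protein CD45, averaged 74.3 CPM in the COX-competent group, 167.9 CPM in COX-deficient tumors and 95.2 CPM where NK cells were depleted. Per CPM of Ptprc, the Gbp sum was 1.08 ± 0.268 (0.84 to 1.45) in Ptgs+/+ tumors, 1.34 ± 0.112 (1.21 to 1.41) in Ptgs-/- tumors and 1.34 ± 0.252 (1.18 to 1.63) after depletion, so that on this scale the 3 groups overlapped and both kinds of Ptgs-/- tumor had the same mean. The chromosome 3 sum per CPM of Ptprc overlapped likewise, at 0.727 to 1.24, 0.919 to 1.12 and 0.948 to 1.33. The chromosome 5 sum per CPM of Ptprc was higher in Ptgs-/- tumors (0.291 to 0.296) than in Ptgs+/+ tumors (0.113 to 0.205) without overlap, and the depleted group (0.195 to 0.293) overlapped both. Without Gbp7, the Gbp sum per CPM of Ptprc was likewise higher in Ptgs-/- tumors (0.737 to 0.783) than in Ptgs+/+ tumors (0.404 to 0.653), without overlap. The depleted group again overlapped both, with a mean of 0.694 against 0.766 in Ptgs-/- tumors. For the whole sum, the overlap of Ptgs+/+ with Ptgs-/- tumors thus depended on counting Gbp7. In bulk tumors, fewer cells of a type and less RNA per cell cannot be told apart.

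Markers of other cells moved as well. Of all genes tested, 12.1% were called higher and 11% lower in Ptgs-/- than in Ptgs+/+ tumors (FDR of 0.05 or less). Summed levels of 8 macrophage markers were 1791 to 2090 CPM in Ptgs+/+ tumors, 2743 to 4249 CPM in Ptgs-/- tumors and 2560 to 2911 CPM after depletion, and 6 of the 8 passed the test as higher in Ptgs-/- than in Ptgs+/+ tumors. Monocyte markers, 3 of 4 of which passed likewise, summed to 265.5 to 404.6, 787.5 to 1389 and 674.1 to 826.7 CPM. NK cell markers, of which 6 of 7 tested were called higher, summed to 17.8 to 38.1, 74.4 to 151.5 and 8.03 to 9.18 CPM, lowest in the tumors of depleted mice. Neutrophil markers, 4 of 6 of which passed as lower in Ptgs-/- tumors, went the other way, at 202.5 to 272.1, 39.3 to 58.5 and 88.6 to 126.7 CPM. T cell markers, of which 4 of 5 tested were called higher, summed to 3.09 to 3.97, 7.5 to 22.4 and 5.67 to 10.2 CPM, and those of type 1 dendritic cells, 5 of 6 higher, to 54.6 to 62, 127.4 to 140.3 and 105.1 to 119.1 CPM. Fibroblast markers (3 of 5 higher) summed to 7742 to 10339, 12809 to 16268 and 10650 to 13291 CPM. Of the skeletal muscle markers, 2 of 5 were called higher in Ptgs-/- than in Ptgs+/+ tumors. Endothelial, fat, keratinocyte and melanocytic lists had no gene called higher in this comparison. Called lower were 2 of 5 endothelial and 1 of 4 keratinocyte markers, and only 2 of the 6 melanocytic markers were tested. The part of these cells in the Gbp levels was not tested.

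**Figure D2:**
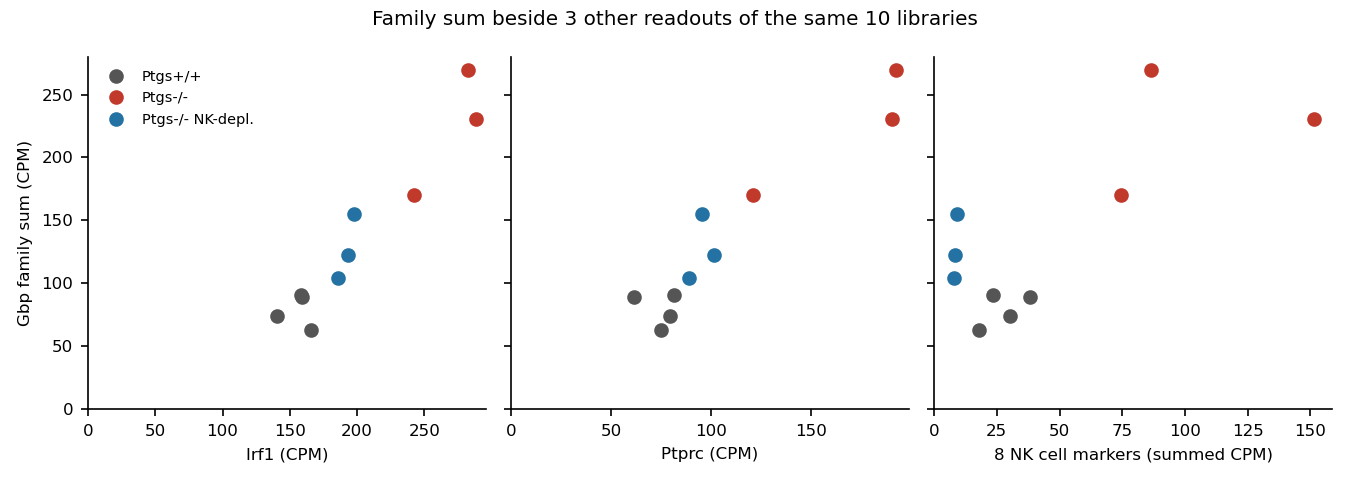
The Gbp family sum (CPM, vertical axis) of each of the 10 libraries against the CPM of Irf1 and Ptprc and the summed CPM of 8 NK cell markers; colors mark the groups. The Gbp sum is 63.0 to 90.5 CPM in Ptgs+/+ and 104.5 to 155.1 CPM in depleted Ptgs-/- tumors, and the NK cell markers are 17.8 to 38.1 CPM and 8.03 to 9.18 CPM.

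Of the 8 members tested, Gbp2b passed the filter on low counts only through its counts in Ptgs-/- tumors, so the counts and medians are led by the other 7. In Ptgs-/- against Ptgs+/+ tumors, 7 of these 7 were called higher at an FDR of 0.05 or less by the quasi-likelihood test of edgeR (Benjamini-Hochberg adjusted over all genes), against 12.1% of all genes tested. At the study's second threshold, an additional log2 fold change of at least 1.5, 5 of the 7 were called, Gbp3, Gbp4, Gbp5, Gbp8 and Gbp9, against 3.14% of all genes. The median log2 fold change of the 7 was 1.64 (1.15 to 3.27), where the median over all genes was -0.01. With Gbp2b the counts were 8 of 8 and 6 of 8, and the median 1.80. Among the 10 members, 9 (8 of 9 without Gbp2b) had every Ptgs-/- library above every Ptgs+/+ library, which held for 15.4% of genes tested. Gbp6 is among those members, although it was not tested and so has no part in that share. Its lowest Ptgs-/- library, at 0.789 CPM, was barely above its highest Ptgs+/+ library, at 0.731 CPM. Tumors of the first experiment code alone gave 7 and 5 calls at the same thresholds without Gbp2b, and 8 and 6 with it.

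**Figure D3:**
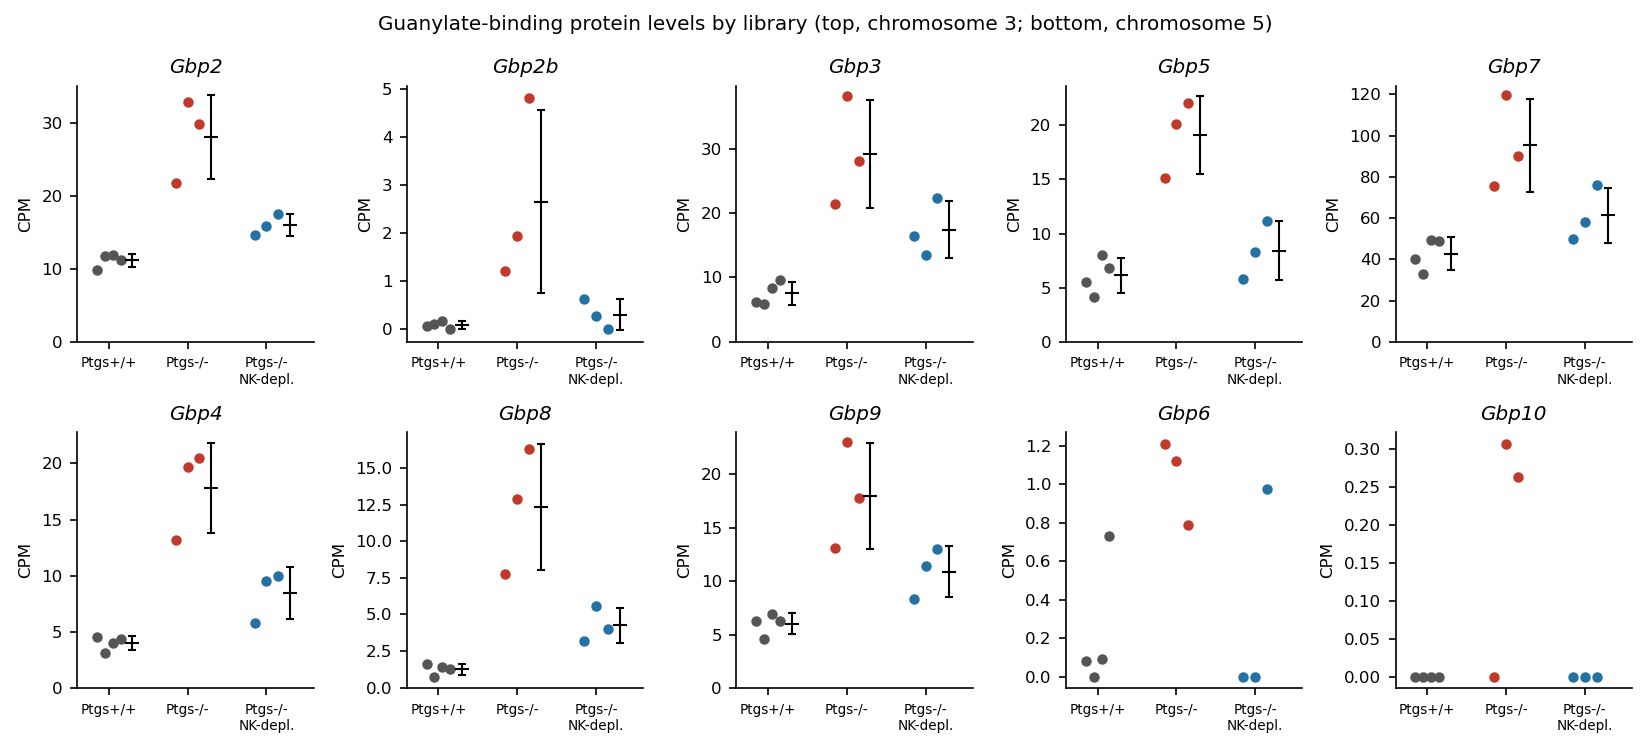
CPM of each member in each of the 10 libraries (points; linear axes of different scale), with the group mean and SD beside them except for Gbp6 and Gbp10, whose counts are few. The Ptgs-/- libraries lie above all Ptgs+/+ libraries for each member but Gbp10, and those of depleted mice mostly fall between.

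Gbp7, which helps the NADPH oxidase and autophagy proteins act on microbes in macrophages, was the most abundant member in every group; a 3′ read is drawn once per transcript, so CPM of different genes can be set side by side without a correction for length. Its level was 40.0, 32.7, 49.6 and 49.0 CPM in the 4 Ptgs+/+ tumors, 75.6, 119.7 and 90.3 CPM in the 3 Ptgs-/- tumors and 49.7, 58.1 and 76.1 CPM in the 3 of depleted mice. The depleted group lay just above the Ptgs+/+ group and its highest library exceeded the lowest Ptgs-/- library. Gbp7 rose 2.22-fold (log2 1.15 ± 0.20 SE, adjusted p = 0.00196), the smallest rise of the 8.

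Gbp2, a member that coats the vacuole of Toxoplasma gondii, was the next smallest in its change. It stood at 9.83, 11.7, 11.9 and 11.2 CPM in Ptgs+/+ tumors, at 21.7, 32.8 and 29.8 CPM in Ptgs-/- tumors and at 14.6, 15.9 and 17.5 CPM after depletion. All 3 groups were separate. The rise in Ptgs-/- tumors was 2.53-fold (log2 1.34 ± 0.16, adjusted p = 0.000248).

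Gbp2b, the gene long called Gbp1 in the mouse and the closest relative of Gbp2, was close to the floor in Ptgs+/+ tumors. It had 1, 1, 2 and 0 counts there, 10, 19 and 55 counts in Ptgs-/- tumors and 6, 3 and 0 counts after depletion. Every Ptgs-/- library was above all others, 6 of the 10 libraries were at or under the floor, so that the gene passed the filter on low counts through the Ptgs-/- group, and the largest value came from replicate 3, of the second experiment code. The CPM were 1.21, 1.94 and 4.82 in Ptgs-/- tumors and at most 0.18 in Ptgs+/+ tumors. The ratio of the summed counts per depth was 30.4 (95% exact interval 11.4 to 114.2, counting error only), and the fitted log2 fold change was 4.69 ± 0.81, or 3.95 without Ptgs-/- replicate 3. No p is given, since the gene entered the test through the group where it is high.

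Gbp5, which promotes the NLRP3 inflammasome, and Gbp3 complete the chromosome 3 cluster. Gbp5 had 5.55, 4.18, 7.99 and 6.79 CPM in Ptgs+/+ tumors, 15.1, 20.1 and 22.1 CPM in Ptgs-/- tumors and 5.78, 8.26 and 11.2 CPM after depletion. Its depleted libraries overlapped the Ptgs+/+ ones and stayed under all Ptgs-/- ones. The rise in Ptgs-/- tumors was 3.12-fold (log2 1.64 ± 0.26, adjusted p = 0.00117). Gbp3 had 6.18, 5.89, 8.35 and 9.61 CPM in Ptgs+/+ tumors, 21.4, 38.1 and 28.0 CPM in Ptgs-/- tumors and 16.5, 13.5 and 22.3 CPM after depletion. Here the depleted libraries were all above the Ptgs+/+ ones and overlapped the Ptgs-/- ones, the opposite arrangement to Gbp5. Gbp3 rose 3.89-fold (log2 1.96 ± 0.24, adjusted p = 0.000357).

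Gbp8 had the largest rise of any member with counts in every library. Its level was 1.59, 0.75, 1.44 and 1.25 CPM in Ptgs+/+ tumors, 7.74, 12.9 and 16.3 CPM in Ptgs-/- tumors and 3.21, 5.57 and 4.01 CPM after depletion. The 3 groups were separate, with the depleted one between. The rise was 9.62-fold (log2 3.27 ± 0.32, adjusted p = 9.04e-05).

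Gbp4, the closest relative of Gbp8, and Gbp9 showed the same order of groups at smaller folds. Gbp4 had 4.52, 3.11, 4.04 and 4.39 CPM in Ptgs+/+ tumors, 13.2, 19.7 and 20.5 CPM in Ptgs-/- tumors and 5.78, 9.56 and 9.97 CPM after depletion, a rise of 4.42-fold in Ptgs-/- over Ptgs+/+ tumors (log2 2.15 ± 0.23, adjusted p = 0.000164). Gbp9 had 6.34, 4.60, 6.91 and 6.27 CPM, then 13.1, 23.0 and 17.8 CPM, then 8.35, 11.4 and 13 CPM in the same groups, a rise of 2.97-fold (log2 1.57 ± 0.22, adjusted p = 0.000726). No groups overlapped for either gene, although the highest depleted library of Gbp9 came close to the lowest Ptgs-/- library.

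Gbp6 and Gbp10, the near-identical pair, were scarcely read. Gbp6 had 1, 0, 1 and 7 counts in Ptgs+/+ tumors, 10, 11 and 9 counts in Ptgs-/- tumors and 0, 0 and 10 counts after depletion, a ratio of 4.83 for Ptgs-/- over Ptgs+/+ tumors (95% exact interval 2.23 to 11.6, counting error only). The depleted group spanned nearly the whole range, from 0 to 0.977 CPM, because of its replicate 3. Gbp10 had 0, 3 and 3 counts in Ptgs-/- tumors and 0 in the other 7 libraries, all at or under the floor, so no fold is given. Gbp11, annotated as a polymorphic pseudogene in GENCODE M21, had 19 counts over the 10 libraries.

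**Figure D4:**
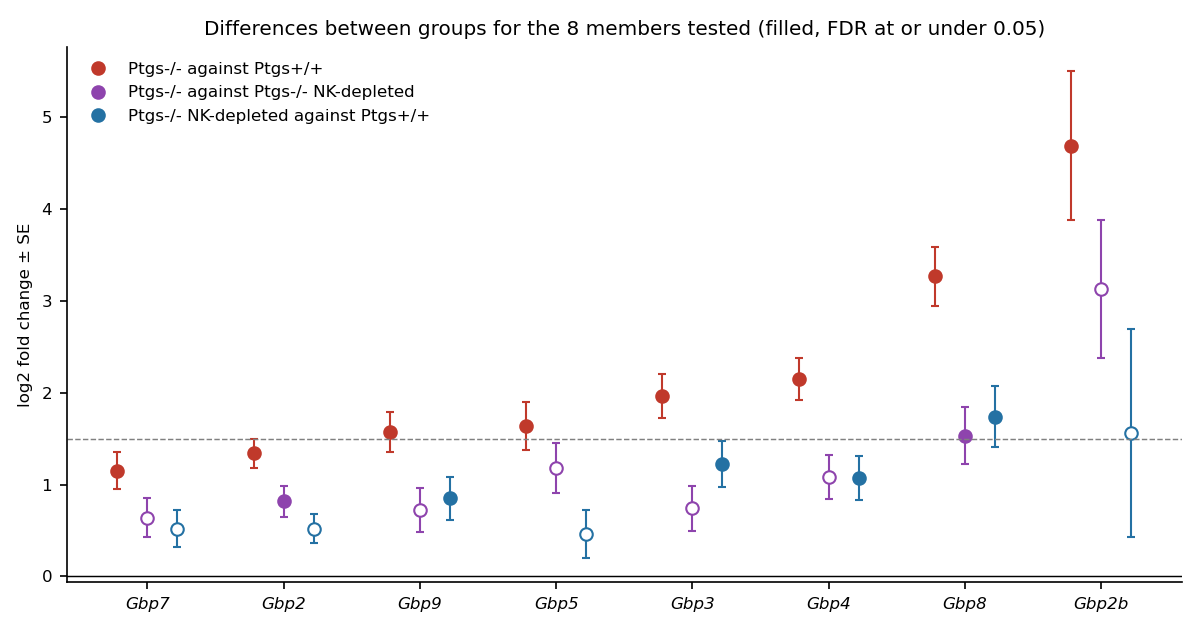
Log2 fold change with its standard error (vertical axis) of the 8 members tested in the 3 comparisons, ordered by the first; filled points passed an FDR of 0.05 and the dashed line marks 1.5. All 24 values lie above 0, all 8 are filled for Ptgs-/- against Ptgs+/+ tumors (among them Gbp2b, which entered the test through its Ptgs-/- counts), 2 for Ptgs-/- tumors against those of depleted mice and 4 for depleted Ptgs-/- against Ptgs+/+ tumors.

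NK cell depletion was compared within Ptgs-/- tumors. Without Gbp2b, the 7 tested members all had higher values in untreated hosts. Their median log2 fold change was 0.82 (0.64 to 1.53), where that of all genes was -0.01. With Gbp2b the median was 0.95, and the calls below did not change in number. At an FDR of 0.05, 2 members were called higher, Gbp2 and Gbp8, against 0.515% of all genes, and with the fold threshold 1 was, Gbp8, against 0.323%. The groups were separate, with untreated hosts higher, for 6 of 10 members (Gbp2, Gbp2b, Gbp4, Gbp5, Gbp8 and Gbp9), or 5 of 9 without Gbp2b, against 9.31% of genes tested. Gbp8 was 2.89-fold higher (log2 1.53 ± 0.31, adjusted p = 0.0336) and Gbp2 1.76-fold higher (log2 0.82 ± 0.17, adjusted p = 0.0336). Both calls depended on the setting: Gbp2 lost its call in 11 of 19 refits (adjusted p 0.00149 to 0.172) and Gbp8 in 9 of 18 (0.000768 to 0.198). Among these were the refit without the tumors of the second experiment code, with the adjusted p at 0.172 for Gbp2 and 0.198 for Gbp8, and those without any 1 of the 3 depleted libraries, without Ptgs-/- replicate 2 or 3 and without Ptgs+/+ replicate 4 (Gbp2 also without Ptgs+/+ replicate 2).

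The remaining 6 had positive values that did not pass. Gbp5 gave a log2 fold change of 1.18 ± 0.27 (adjusted p = 0.0676) and Gbp4 1.08 ± 0.24 (adjusted p = 0.059). Gbp2b gave 3.13 ± 0.75, with a ratio of summed counts of 9.61 (4.83 to 21.7), and for the reason given above no p. For Gbp3, Gbp9 and Gbp7, the values were 0.74, 0.72 and 0.64, with adjusted p of 0.272, 0.249 and 0.256. DESeq2 called 5 members in this comparison, Gbp2, Gbp2b, Gbp4, Gbp5 and Gbp8, and the likelihood ratio test also called 5. Both counts include Gbp2b, whose call is no support for the reason given above.

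Ptgs-/- tumors of depleted mice were also set against Ptgs+/+ tumors; this comparison shares its libraries with both others, and so it is not independent of them. The 7 tested members other than Gbp2b all had higher values in the former, with a median log2 fold change of 0.85 (0.46 to 1.74), or 0.96 with Gbp2b. Of the 7, 4 were called at an FDR of 0.05, against 6.63% of all genes, and 1 with the fold threshold, against 2.01%. The groups were separate for 6 of 10 members, against 13.6% of genes tested. Gbp8 was 3.33-fold higher (log2 1.74 ± 0.33, adjusted p = 0.0061), Gbp3 2.32-fold (log2 1.22 ± 0.25, adjusted p = 0.00808), Gbp4 2.10-fold (log2 1.07 ± 0.24, adjusted p = 0.0136) and Gbp9 1.81-fold (log2 0.85 ± 0.23, adjusted p = 0.0315). All 3 tested members of the chromosome 5 cluster were thus called, and of chromosome 3 only Gbp3. Gbp2 (0.52 ± 0.16, adjusted p = 0.0515), Gbp7 (0.52 ± 0.20, adjusted p = 0.115) and Gbp5 (0.46 ± 0.26, adjusted p = 0.296) did not pass. Gbp2b gave 1.56 ± 1.13, with a ratio of summed counts of 3.16 (0.883 to 14.1), and for the reason given above no p. Without replicate 3 of the depleted group, whose Gbp sum was the highest of the 3, only Gbp8 kept its call; Gbp4 also lost it without depleted replicate 2 (adjusted p = 0.0602), and Gbp9 lost it in 7 of 19 refits (adjusted p up to 0.136). Muscle transcripts, given above, were far higher in the depleted libraries, and their part was not tested.

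The members did not keep their proportions. Gbp7 made up 53.9 ± 1.42% of the family counts in Ptgs+/+ tumors (n = 4, 51.9 to 54.9%), 42.7 ± 3.04% in Ptgs-/- tumors (n = 3, 39.1 to 44.4%) and 48.0 ± 0.939% after depletion (n = 3, 47.4 to 49.1%), with no overlap between groups. Gbp8 took 1.58 ± 0.405%, 5.46 ± 1.40% and 3.4 ± 1.02% in the same order. Its lowest Ptgs-/- share, 4.55%, and its highest share after depletion, 4.54%, nearly met. Gbp3 held 9.42 ± 1.01%, 12.9 ± 1.05% and 13.7 ± 2.43%, with overlapping ranges in both Ptgs-/- groups. Gbp2 (14.4, 12.6 and 12.7%) and Gbp9 (7.63, 7.97 and 8.56%) kept shares whose ranges overlapped between all groups.

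**Figure D5:**
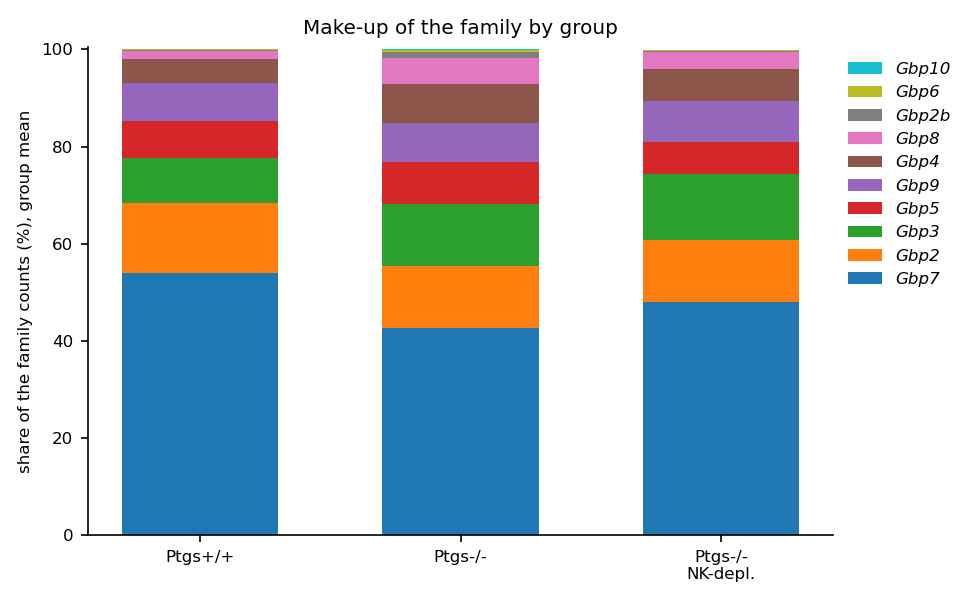
Share of each member in the counts of the family (vertical axis, %, mean over the libraries of a group) in the 3 groups. The lowest block, Gbp7, falls from 53.9% in Ptgs+/+ to 42.7% in Ptgs-/- tumors and stands at 48.0% after depletion, and Gbp8 grows from 1.58 to 5.46%.

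Within groups the members also moved together. Over the 7 members with at least 100 counts, the deviations of the 10 libraries from their group means correlated with a median Pearson r of 0.712 across the 21 pairs of members (0.254 for Gbp3 and Gbp8 to 0.928 for Gbp7 and Gbp9). These pairs share their libraries and depth, and no test was made. Ptgs-/- replicate 1 was under its group mean for 7 of 7 members and replicate 2 over it for 7 of 7. Replicate 1 of the depleted group was under its mean for 7 of 7, and Ptgs+/+ replicates 3 and 4 were over theirs for 7 of 7. In Ptprc the same Ptgs-/- replicate 1 was the lowest of its group, at 120.9 CPM against 192.3 and 190.4 CPM, and Ptgs+/+ replicate 4 was the lowest of its own, at 61.6 CPM.

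None of the tested genes nearest to the clusters was called higher in Ptgs-/- tumors. Pdlim5 and Kyat3 beside or near the Gbp genes of chromosome 3 had log2 fold changes of 0.01 and -0.30 in Ptgs-/- against Ptgs+/+ tumors (adjusted p = 0.958 and 0.417). Of the others, Gtf2b, Zfp951, Abcg3 and Lrrc8b had -0.21, 0.40, 0.25 and -0.09, none past the threshold. Lrrc8c, a subunit of volume-regulated anion channels that lies beyond Lrrc8b near the chromosome 5 cluster, fell by 0.61 on the log2 scale (adjusted p = 0.00141).

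Of the 15 genes listed for the induction of Gbp transcription, 14 were tested, 8 rose and 1 fell in Ptgs-/- against Ptgs+/+ tumors, where 12.1% of all genes tested rose and 11% fell. The single gene that fell is near the share of all genes. The transcription factors Stat2 (log2 1.51, adjusted p = 0.00147), Batf2 (1.51, adjusted p = 0.00416) and Irf8 (1.42, adjusted p = 0.000135) were among those that rose, and Irf1 rose by 0.80 (adjusted p = 0.00026). Socs3, a feedback inhibitor of cytokine signaling, fell by 1.05 (adjusted p = 0.027). Ifngr1 and Ifngr2, the receptor chains for interferon-γ, gave 0.22 and 0.35 (adjusted p = 0.213 and 0.151). Ifng itself had 0, 0, 0 and 2 counts in Ptgs+/+ tumors, 3, 4 and 7 in Ptgs-/- tumors and 1, 0 and 0 after depletion, too few for the test, with 8 of 10 libraries at or under the floor. In Ptgs-/- tumors against those of depleted mice, Irf1 was the 1 gene of the list that passed (log2 0.50, adjusted p = 0.0341), against 0.515% of all genes. Irf1 stood at 140.8 to 165.4 CPM in Ptgs+/+ tumors, at 242.0 to 288.3 CPM in Ptgs-/- tumors and at 185.8 to 197.6 CPM after depletion, 3 separate ranges.

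Of the 17 genes of Gbp recruitment to membranes, 15 were tested, 5 rose and 1 fell in Ptgs-/- against Ptgs+/+ tumors, against the same 12.1% and 11% of all genes, so that the count of those that fell is near the background. All 5 that rose are immunity-related GTPases, themselves interferon-inducible: Gm12250 (Irgb10; log2 2.24, adjusted p = 0.003), Ifi47 (1.66, adjusted p = 0.000301), Irgm2 (1.59, adjusted p = 0.00155), Igtp (1.58, adjusted p = 0.00048) and Irgm1 (1.35, adjusted p = 0.00101). The list's autophagy genes lay between -0.55 and 0.13, and of these Map1lc3a passed as lower (adjusted p = 0.0108). No gene of this list passed in Ptgs-/- tumors against those of depleted mice, and 2, Irgm2 and Ifi47, passed in depleted Ptgs-/- against Ptgs+/+ tumors (1.14 and 0.85, adjusted p = 0.0147 and 0.018), against 6.63% of all genes.

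The 9 inflammasome genes were mixed, with 5 that rose and 1 that fell in Ptgs-/- against Ptgs+/+ tumors, beside 12.1% and 11% of all genes, and again the 1 that fell is near the background. Pycard, the adaptor ASC, rose by 1.35 (adjusted p = 0.000292), Aim2, a sensor of cytosolic DNA, by 0.99 (adjusted p = 0.0016) and the cytokine gene Il18 by 0.76 (adjusted p = 0.0285). Il1b, an inflammasome-processed cytokine that neutrophils and other myeloid cells make, fell by 2.15 (adjusted p = 6.13e-06), from 92.0 to 20.7 CPM, and stood at 22.2 CPM after depletion. Of the 5 genes of protein prenylation, the lipid anchor of Gbp2, Gbp2b and Gbp5, none rose and Fntb fell by 0.40 (adjusted p = 0.0381). Of the 6 dynamin-fold relatives, 5 were tested and the 2 that rose were the antiviral GTPases Mx1 (2.36, adjusted p = 0.000423) and Mx2 (2.21, adjusted p = 0.00255). The atlastins Atl1, Atl2 and Atl3, which shape the endoplasmic reticulum and are not known as interferon-inducible, gave -0.52, -0.18 and 0.01 (adjusted p = 0.345, 0.616 and 0.965).

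The pattern most like that of the Gbp sum across the 10 libraries, by Pearson r of log2(CPM + 1) over 14542 genes, was that of Parp9 (r = 0.994), followed by Tap1 (0.992), Ifi213 (0.991), Ddx60 (0.99) and Vav1 (0.988). Parp9, Tap1, Ifi213 and Ddx60 are interferon-inducible, and Tap1 carries peptides to MHC class I. Vav1 is a signaling protein of hematopoietic cells. Irf1 ranked 138 (r = 0.945). The points are libraries of 3 groups, and the correlations describe a shared order of libraries, with no test. Tap1 had 30.4 to 45.3 CPM in Ptgs+/+ tumors, 82.0 to 131.6 CPM in Ptgs-/- tumors and 50.1 to 68.5 CPM after depletion.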

How the data were processed

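Bulk RNA of 10 tumors was read with the Lexogen QuantSeq 3′ kit. Reads were trimmed by the authors (BBDUK, fqtrim, cutadapt), mapped with STAR on GRCm38 and assigned to Ensembl genes by featureCounts, and the deposited values are unnormalized counts of each gene in each tumor. Strand, multimapping and molecular-identifier settings are not given in the sources used here. GENCODE M21 named 45143 of the 45706 identifiers. Replicates of a group differed by 7.41 to 30.1 in chi-square per degree of freedom, so none was a library deposited again.

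Counts were analysed with edgeR 4.0.16 in R 4.3.3 (filterByExpr, TMM, quasi-likelihood test, 1 model of 3 groups and 10 libraries) with Benjamini-Hochberg adjustment over 14550 genes, at an FDR of 0.05 with or without an absolute log2 fold change of 1.5. CPM use TMM-scaled library totals. The standard error is the absolute log2 fold change divided by the square root of F. Sums over members have no test. The script was tested on simulated data. Named are all members, the nearest genes, Ifng and Irf1, up to 4 called genes a list with the largest change in Ptgs-/- against Ptgs+/+ tumors and the 5 genes most like the Gbp sum; other list genes were named after their values were seen, and an item that falls under this rule is not reported here. Members, lists and markers were chosen with earlier results of these data known. Alternatives were DESeq2 1.42.0, a likelihood ratio test, other filters, library size alone, the experiment code, a replicate block, fewer groups and each library left out. Promoter sequences are from RefSeq. The depth is given with the results, and intervals cover counting error only.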

Additional observations from a re-analysis of the deposited data

Results flagged for a closer look

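Among 20 groups of 4 Ptgs+/+ libraries checked for a library far from the rest, 3 were picked out. Chance alone picks out about 1 in 20 among independent groups of continuous values. That rate does not hold for counts at or near 0, as most of those of Gbp6 and Ifng were. The chromosome 5 sum also contains Gbp6, so the groups were not independent. Gbp6 stood at 0.731 CPM in Ptgs+/+ replicate 4 and at 0.0898 CPM or less in the other 3. Ifng stood at 0.209 CPM in the same library, where it had 2 counts, and at 0 in the other 3. The chromosome 5 sum was 8.46 CPM in Ptgs+/+ replicate 2, against a highest value of 12.6 CPM. Groups of 3 were not checked.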

How the results depend on the processing

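Refits of Gbp2b, 18 in Ptgs-/- against Ptgs+/+ tumors, are no support for its call, since it entered the test through its Ptgs-/- counts. In Ptgs-/- against Ptgs+/+ tumors, 150 of 150 refitted member values, those of Gbp2b included, kept their direction and call. In Ptgs-/- tumors against those of depleted mice, 116 of 150 did, 20 lost the call, 14 gained it and 0 reversed; in depleted Ptgs-/- against Ptgs+/+ tumors, 129 of 149 did, with 10 lost, 10 gained and 0 reversed. The members called in the depletion comparison (2, and 1 with the fold threshold) became 5 and 2 with the likelihood ratio test, with no low-count filter and with DESeq2, and 0 and 0 with at least 10 counts in every library, with the experiment code as a term, with the first code only and with only the groups compared. The counts of 5, and of 2 with the fold threshold, in those refits include Gbp2b. Gbp2b left out of the main count, chosen after seeing the data, kept 2 and 1 in the depletion comparison, or 0 and 0 with the first code only. With the label number as a replicate block they were 3 and 0; the r of same-numbered libraries ran from -0.244 to 0.355 over all groups and not every pair passed 0.1 (0.0499, 0.0317 and 0.011 between both Ptgs-/- groups), so the numbers were not taken to pair the samples. Genes called there (209, and 167 with the fold threshold) became 403, 408, 42, 93 and 377 with the likelihood ratio test, no filter, the 10-count filter, the first code only and DESeq2, and, with the fold threshold, 36 with the 10-count filter and 87 with the first code. In Ptgs-/- against Ptgs+/+ tumors, genes called went from 3360 to 2222 with the first code only and, with the fold threshold, from 604 to 305 with the 10-count filter. In depleted Ptgs-/- against Ptgs+/+ tumors the 10-count filter changed 395 genes to 142 and 1 member to 0 at the fold threshold. That filter removed Gbp8 and Gbp2b from the test.

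The log2 ratio of the Gbp sum in Ptgs-/- against Ptgs+/+ tumors was 1.5, and 1.82 without Gbp7. Per CPM of Ptprc the sum of all 10 gave 0.31, and the other ratios were 0.00 (Ptgs-/- against depleted, from 0.81) and 0.30 (depleted against Ptgs+/+, from 0.69). Leaving out each library in turn gave, for Ptgs-/- against Ptgs+/+ tumors, 8 to 9 members, 4 to 7 with the fold threshold, 2062 to 3881 genes, 480 to 723 with the fold threshold, and a log2 ratio of the sum of 1.34 to 1.66. For Ptgs-/- against depleted tumors it gave 0 to 5 members, 0 to 2, 106 to 411 genes, 100 to 213, and 0.65 to 0.98, lowest without Ptgs-/- replicate 2 for the genes and the sum. For depleted Ptgs-/- against Ptgs+/+ tumors it gave 1 to 5 members, 0 to 1, 909 to 2116 genes, 343 to 439, and 0.52 to 0.81, lowest without depleted replicate 3 for the FDR counts and the sum. The cause of these changes was not tested. Depth limits Gbp2b, Gbp6, Gbp10 and Ifng, which had few counts.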
